A study of Mus musculus with 18 samples.

Results

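The genes described here are 33 genes of the oligodendrocyte lineage, listed by name as known genes of the lineage, out of 17097 genes with a probe set on the arrays. Of the 33, 31 had a probe set that named a single gene, and Myrf and Cspg4 were not analysed here. Where a gene had several probe sets, the brightest on average over the 18 arrays was read. A filter that removed the lowest 25% of genes by mean log2 value, which lay at 5.52, kept 12822 genes and 29 of the 33. Pdgfra and Gjb1 were below the filter.

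Oligodendrocytes wrap axons in myelin, a compacted membrane that speeds conduction and that turns over slowly in the adult brain. They arise from precursor cells that carry the receptor PDGFRA and the proteoglycan NG2, the product of Cspg4, pass through a short newly formed stage, and then switch on the genes of the myelin sheath under the transcription factors SOX10, OLIG1, OLIG2 and MYRF. Some myelin messages, Mbp above all, are carried into the processes of the cell and translated beside the forming sheath. CPEB4 binds mRNAs in the cytoplasm and takes part in lengthening or shortening their poly(A) tails.

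The groups were CPEB4 KO mice, CPEB4 GT/+ mice and WT mice, with 2 animals in each, all aged 6 weeks. Cortex and striatum of each animal were dissected as 1 sample. Each animal gave 3 arrays, 1 of unfractionated RNA (INPUT), 1 of RNA released from poly(U) agarose by 25% formamide (WASH, richer in short tails) and 1 of RNA released by 90% formamide (ELUTED, richer in long tails). The labels do not describe the GT allele beyond its name, the cells in which CPEB4 is lost, or the sex and litter of the animals. Values are log2 RMA values, which are scaled between arrays, so each difference is one against the rest of the array, and RMA leaves the total amount of RNA in a fraction unmeasured.

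Cpeb4 itself had INPUT values of 6.62 and 6.91 in CPEB4 KO, 7.31 and 7.00 in CPEB4 GT/+ and 8.15 and 7.62 in WT animals. The 3 genotypes did not overlap. The difference was -1.12 for CPEB4 KO minus WT (SE 0.19, limma adjusted p = 0.253) and -0.73 for CPEB4 GT/+ minus WT (SE 0.19, adjusted p = 1.00), so neither passed the threshold of 0.05 over all genes. With 2 animals per genotype, an exact permutation test of a single gene cannot give a two-sided p below 0.333, so tests were taken from a limma fit that shares information over all genes.

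The genes of mature oligodendrocytes (sheath, metabolism, channels and others) were nearly all measured, with 22 of 23 kept, but the precursor stage was measured by only 2 genes, Vcan and Lhfpl3. Pdgfra, the defining precursor receptor, had INPUT values of 4.36 and 4.29 in CPEB4 KO, 4.39 and 4.48 in CPEB4 GT/+ and 4.48 and 4.46 in WT animals, which is below the brightest of 23 nonspecific control probe sets, whose mean was 5.61. Gjb1, a gap junction protein of myelinating cells, had a mean of 4.97 over all arrays and lay below it as well. The label of the module therefore holds for mature oligodendrocytes in this tissue, and for precursors it rests on 2 genes.

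One array stood apart. The INPUT array of CPEB4 KO animal 1 carried liver transcripts: albumin (Alb) was at 12.08 there, against 6.14 in the other CPEB4 KO animal, 6.35 and 6.28 in CPEB4 GT/+ and 6.23 and 6.26 in WT animals. The median of 10 liver genes was 10.55 on that array and ran from 5.46 to 5.61 on the other 5 INPUT arrays. The WASH and ELUTED arrays of the same animal did not show it, with Alb at 6.16 and 6.53. Among the oligodendrocyte genes Trf, which encodes the iron carrier transferrin and is also a major liver product, was at 12.01 on that INPUT array and at 10.81 in the other CPEB4 KO animal, while the WASH values of both animals were 10.86 and 10.83. Differences of CPEB4 KO in INPUT are therefore also given without that animal for the oligodendrocyte genes named, and some list medians are given per animal.

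**Figure D1:**
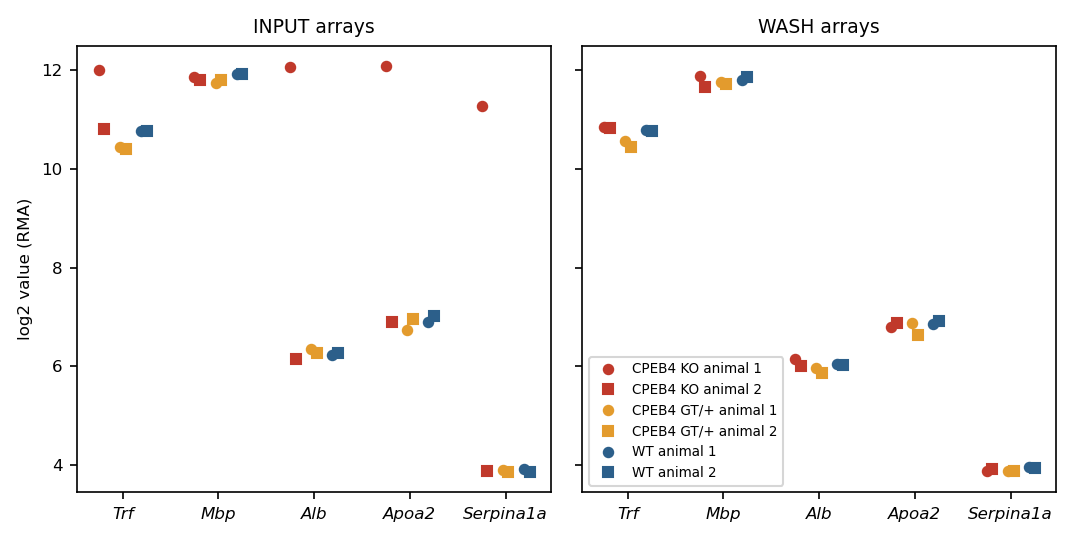
Log2 values of 2 oligodendrocyte genes (Trf, Mbp) and 3 liver genes (Alb, Apoa2, Serpina1a) on the 6 INPUT and the 6 WASH arrays, 1 point per animal. On INPUT the array of CPEB4 KO animal 1 is at 12.01 for Trf and 12.08 for Alb, above the other 5 arrays, and on WASH it lies with the others.

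The sequences before the starts of 5 genes are shown because these genes mark both sides of the contrast between mature and precursor genes: Ttyh2, Gjc3 and Mog had the largest differences between CPEB4 GT/+ and WT in INPUT among members with an entry in the promoter table used here, and Vcan and Lhfpl3 were the measured precursor genes. They are RefSeq promoters of build GRCm38.p6, cut to the 250 bases before the annotated start and written 5′ to 3′ on the strand of the gene, and 25 of the 33 genes had an entry. The regions are chr11:114675218-114675467 (plus strand) for Ttyh2, chr5:137963099-137963348 (minus strand) for Gjc3, chr17:37023399-37023648 (minus strand) for Mog, chr13:89742513-89742762 (minus strand) for Vcan and chr5:22745804-22746053 (plus strand) for Lhfpl3. Capitals mark matches, on either strand, to CTGGNAC (the MYRF motif) or to CAGCTG (an E-box that OLIG2 can bind), and ACAAAG (the SOX core) had no match in these 5.
Ttyh2: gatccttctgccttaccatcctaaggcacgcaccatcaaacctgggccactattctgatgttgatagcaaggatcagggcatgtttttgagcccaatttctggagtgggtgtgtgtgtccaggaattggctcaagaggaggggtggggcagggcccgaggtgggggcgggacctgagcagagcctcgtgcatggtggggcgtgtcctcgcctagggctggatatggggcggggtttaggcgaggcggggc
Gjc3: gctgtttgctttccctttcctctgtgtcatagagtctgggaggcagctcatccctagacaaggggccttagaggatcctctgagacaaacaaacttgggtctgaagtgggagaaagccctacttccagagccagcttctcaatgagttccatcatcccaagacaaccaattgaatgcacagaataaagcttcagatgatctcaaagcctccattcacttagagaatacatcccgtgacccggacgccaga
Mog: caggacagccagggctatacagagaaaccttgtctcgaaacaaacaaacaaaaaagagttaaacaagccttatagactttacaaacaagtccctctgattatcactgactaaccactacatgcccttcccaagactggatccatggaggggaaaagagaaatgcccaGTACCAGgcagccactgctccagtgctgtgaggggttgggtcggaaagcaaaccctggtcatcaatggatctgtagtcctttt
Vcan: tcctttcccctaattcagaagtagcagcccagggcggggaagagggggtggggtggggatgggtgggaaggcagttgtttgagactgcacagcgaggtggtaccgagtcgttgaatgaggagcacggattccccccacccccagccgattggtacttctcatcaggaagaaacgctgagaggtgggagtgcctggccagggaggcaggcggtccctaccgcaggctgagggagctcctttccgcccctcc
Lhfpl3: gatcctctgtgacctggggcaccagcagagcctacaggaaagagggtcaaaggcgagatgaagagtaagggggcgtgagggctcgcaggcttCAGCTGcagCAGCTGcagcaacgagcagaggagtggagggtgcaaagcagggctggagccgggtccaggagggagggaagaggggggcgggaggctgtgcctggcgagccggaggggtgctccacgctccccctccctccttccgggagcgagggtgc
Mog had 1 match to the MYRF motif, read on the other strand and starting at base -83, and Lhfpl3 had 2 E-box matches, at -158 and -149. Over the 35 promoter entries of the oligodendrocyte genes, 28.6% held ACAAAG, 22.9% held CTGGNAC and 11.4% held CAGCTG. Over all 32851 promoters in the table the shares were 16.5%, 16.1% and 13%. A match describes the letters and is not evidence of binding.

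In INPUT, the mature oligodendrocyte genes were lower in CPEB4 GT/+ than in WT animals as a group, by a small amount. All 22 kept mature genes had a difference below 0, with a median of -0.18, and the 2 precursor genes had differences of 0.09 (Vcan) and 0.03 (Lhfpl3), of which Lhfpl3 was at -0.01 once arrays were aligned on the hybridisation controls. Over all 29 genes, 27 were below 0 and the median was -0.17, beside 6178 of 12822 genes below 0 and a median of 0.00 over all genes. In 22 of the 29 genes both CPEB4 GT/+ animals lay below both WT animals, and this was so for 15% of all genes, while 0 of the 29 lay above without overlap, beside 16.9% of all genes. No single gene passed the limma test: 0 of 29 genes were called in either direction, where 0% of all genes were called, and at an unadjusted p under 0.05 there were 6 lower and 0 higher among the 29, and 216 lower and 222 higher among all genes. Fewer oligodendrocytes and less RNA per oligodendrocyte cannot be told apart in this bulk tissue.

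Among the enzymes, Fa2h had the largest difference. It encodes the fatty acid 2-hydroxylase that makes the hydroxylated lipids of myelin. Its INPUT values were 7.13 and 7.17 in CPEB4 GT/+ and 7.63 and 7.68 in WT animals, and the groups were separated by more than their spread (difference -0.50, SE 0.09, unadjusted p = 5.69e-04, limma adjusted p = 1.00). Trf had 10.45 and 10.40 in CPEB4 GT/+ against 10.77 and 10.76 in WT animals (difference -0.34). The SE of Trf was 0.32, because the fit shares 1 spread over the genotypes and the 2 CPEB4 KO animals differed. Ugt8a, the galactosyltransferase of myelin galactolipids, differed by -0.23, Qdpr, which regenerates tetrahydrobiopterin, by -0.19, Car2, a carbonic anhydrase, by -0.11, and Aspa, which cleaves N-acetylaspartate, by -0.10. Of these 6 genes 5 did not overlap between the groups.

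Among the proteins of the sheath, Mog, a glycoprotein of its outermost surface, had 8.93 and 8.83 in CPEB4 GT/+ and 9.19 and 9.25 in WT animals (difference -0.34, SE 0.09, limma adjusted p = 1.00). Ermn, a cytoskeletal protein of late oligodendrocytes, had 7.33 and 7.30 in CPEB4 GT/+ against 7.60 and 7.62 in WT animals (difference -0.30, SE 0.11). Mbp, the main protein of compact myelin on its cytoplasmic face, had 11.74 and 11.80 in CPEB4 GT/+ and 11.92 and 11.92 in WT animals, a difference of -0.15 (SE 0.09). The other 8 sheath genes (Mag, Mobp, Cnp, Mal, Cldn11, Opalin, Pllp and Tspan2) differed by -0.20 to -0.12. Only Pllp of the 11 overlapped between the groups.

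The genes of channels and junctions included 2 of the largest differences. Ttyh2, a tweety family membrane protein, had 9.55 and 9.52 in CPEB4 GT/+ and 9.97 and 9.98 in WT animals (difference -0.44, SE 0.09, unadjusted p = 0.00121, limma adjusted p = 1.00). Gjc3, a connexin of oligodendrocytes, had 8.42 and 8.13 in CPEB4 GT/+ against 8.61 and 8.73 in WT animals (difference -0.40, SE 0.17). Both genes were lower without overlap. Evi2a, the lysophosphatidic acid receptor gene Lpar1 and the actin-severing gelsolin (Gsn) differed by -0.14, -0.15 and -0.12, and Gsn overlapped, since CPEB4 GT/+ animal 2 was at 9.18 and animal 1 at 9.54. Without CPEB4 GT/+ animal 2 the difference was -0.25 for Gjc3 and 0.06 for Gsn.

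The transcription factors were mixed. Sox10, which drives the myelin genes, had 8.40 and 8.29 in CPEB4 GT/+ and 8.61 and 8.72 in WT animals (difference -0.32, SE 0.10). Its other probe sets differed less, by -0.018 and -0.12. Olig1 differed by -0.17 without overlap. Olig2, which is present through the whole lineage, had 8.41 and 8.23 in CPEB4 GT/+ and 8.48 and 8.28 in WT animals, and these values overlapped (difference -0.06, SE 0.11). Nkx6-2 also overlapped, at -0.07.

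The precursor genes had no steady direction. Vcan, the proteoglycan versican, had 7.23 and 7.27 in CPEB4 GT/+ and 7.28 and 7.03 in WT animals (difference 0.09, SE 0.11), and its difference was -0.034 without WT animal 2, -0.19 in WASH and -0.026 in ELUTED. Lhfpl3 had 6.73 and 6.25 in CPEB4 GT/+ and 6.77 and 6.14 in WT animals (difference 0.03, SE 0.23), so the animals of 1 genotype differed more than the genotypes did, and its difference ran from -0.28 without WT animal 2 to 0.35 without WT animal 1. Itpr2, an inositol trisphosphate receptor that marks newly formed oligodendrocytes in mice, had 7.19 and 6.80 in CPEB4 GT/+ and 7.21 and 7.23 in WT animals (difference -0.23, SE 0.13). That difference rested on CPEB4 GT/+ animal 2, since it was -0.03 without it. With 2 precursor genes the contrast between mature and precursor genes is a description of these genes.

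**Figure D2:**
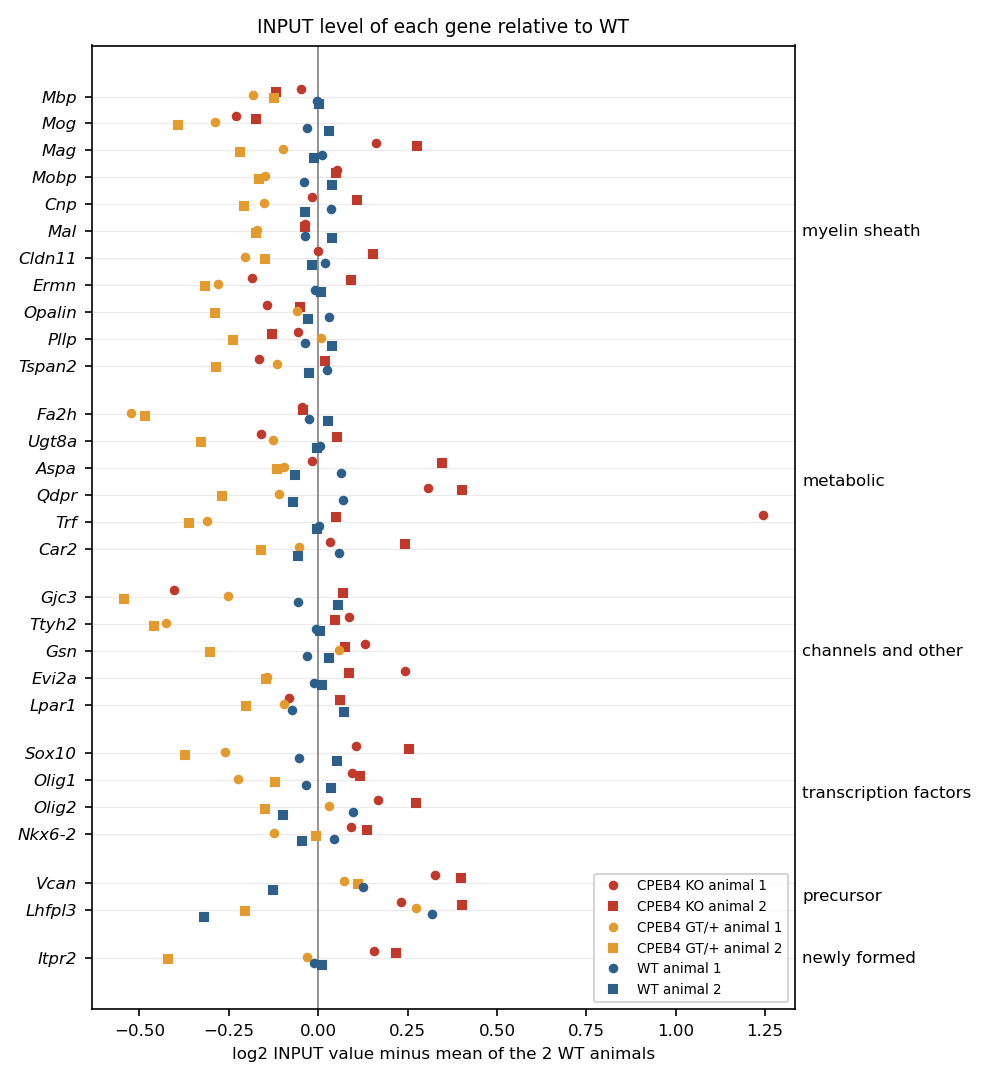
Log2 INPUT value of each of the 29 genes minus the mean of the 2 WT animals (x axis), by role, 1 point per animal. The CPEB4 GT/+ points lie below both WT points in 22 of the 29 genes, and the 1 point far to the right is Trf in CPEB4 KO animal 1.

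The other 2 fractions come from the same animals and are no independent replicates. Of the 29 genes, 24 were below 0 in CPEB4 GT/+ minus WT in all 3 fractions, and the other 5 were Evi2a and Itpr2 (0.09 and 0.06 in WASH), Sox10 (0.05 in ELUTED), Vcan (0.09 in INPUT, -0.19 in WASH) and Lhfpl3 (above 0 in each). In WASH, 26 of the 29 genes were below WT with a median of -0.19, and 19 were lower without overlap, beside 15.3% of all genes. In ELUTED, 27 were below WT with a median of -0.23, and 13 were lower without overlap, beside 8.77% of all genes. The median ELUTED value over the 29 genes was 9.02 in CPEB4 GT/+ animal 1 and 8.47 in animal 2. It was 9.01 and 8.90 in WT animals, so by this median only CPEB4 GT/+ animal 2 lay below WT in ELUTED. None of the 29 was called in either fraction, where limma called 0% of all genes. Leaving out CPEB4 GT/+ animal 2 left 24 of 29 INPUT differences below 0 with a median of -0.13.

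**Figure D3:**
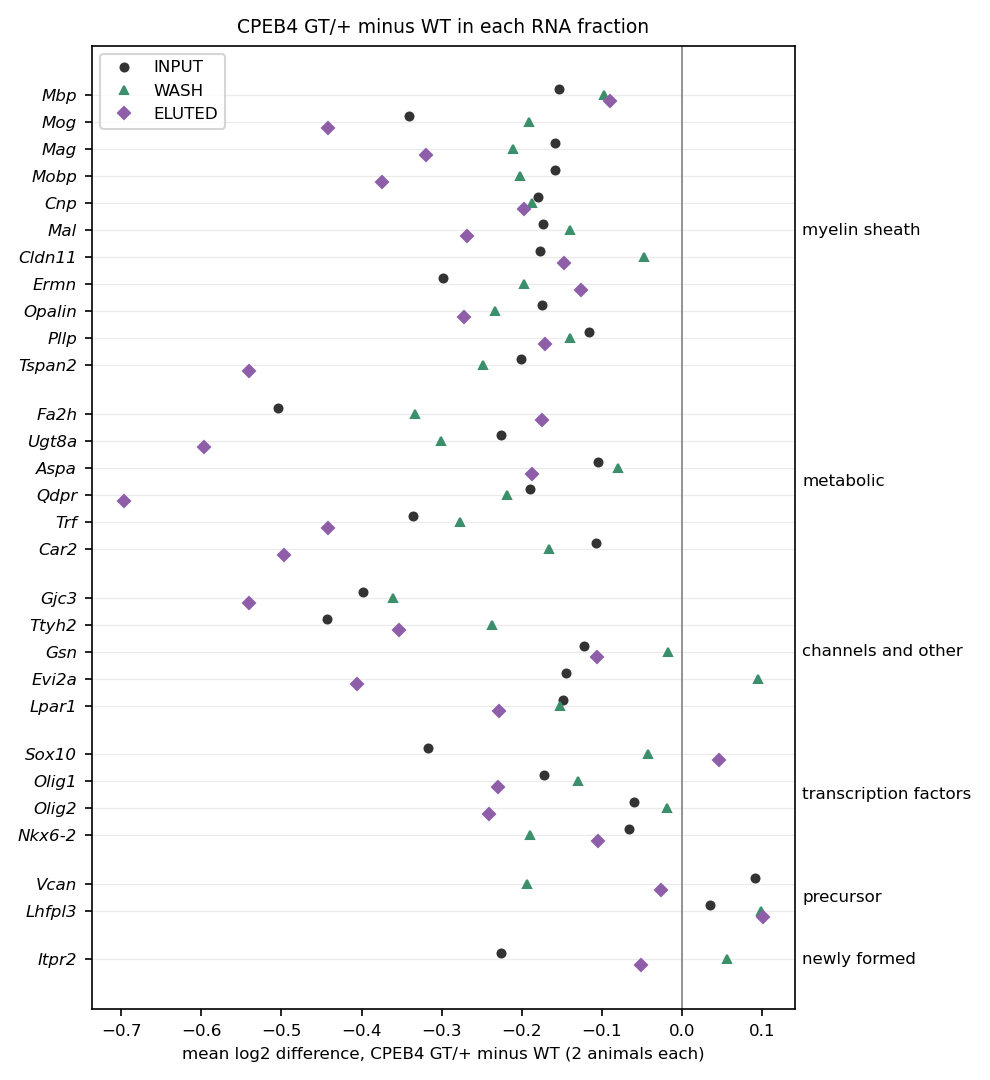
Mean log2 difference, CPEB4 GT/+ minus WT, of each of the 29 genes in INPUT, WASH and ELUTED RNA (2 animals per genotype). Most points lie left of 0 in each fraction (24 genes in all 3), with 27, 26 and 27 genes below 0 in INPUT, WASH and ELUTED.

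Other genes of the lineage were read from lists. Of 29 other genes of mature oligodendrocytes, 23 were kept, 20 were below 0 in CPEB4 GT/+ minus WT and 15 of the 23 were lower without overlap (15% of all genes), with a median of -0.17. Carns1, which makes carnosine, had the largest difference of that list (-0.55). Of 17 other precursor and early genes, 10 were kept and 6 were below 0, with a median of -0.01 and the largest difference in C1ql1 (-0.18). Of 17 genes of cholesterol synthesis, which supplies the main lipid of myelin but runs in all cells, 14 were kept and 3 were below 0, with a median of 0.11 and the largest difference in Msmo1 (0.31). None of these genes was called by limma in this comparison.

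Markers of other cells moved beside this difference. The 7 kept cortical excitatory markers were all above 0 in CPEB4 GT/+ minus WT (median 0.13), and so were the 7 kept striatal projection neuron markers (median 0.09). Astrocyte markers were below 0 in 8 of 9 (median -0.13), ependymal and choroid plexus markers in 5 of 5 (median -0.21) and markers of other brain regions in 6 of 7 (median -0.38). The hypothalamic peptide gene Pmch differed between animals of the same genotype, at 9.23 and 5.16 in the 2 WT INPUT arrays. The part of dissection and of cell composition in the difference of the oligodendrocyte genes was not tested.

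In INPUT, CPEB4 KO minus CPEB4 GT/+ had all 29 genes above 0, with a median of 0.25 beside 0.02 over all genes, of which 7212 of 12822 were above 0. In 23 of the 29 genes both CPEB4 KO animals lay above both CPEB4 GT/+ animals, beside 22.8% of all genes, and in 0 below, beside 15.2%. Limma called 0 of the 29, and 0% of all genes, and at an unadjusted p under 0.05 there were 12 higher and 0 lower among the 29, beside 765 higher and 278 lower among all genes. This comparison uses the same CPEB4 GT/+ animals as the one with WT, so the 2 are not independent. Without CPEB4 KO animal 1, 28 of 29 genes were above 0 and the median was 0.31.

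Trf, Qdpr and Ttyh2 differed most. Trf had 12.01 and 10.81 in CPEB4 KO and 10.45 and 10.40 in CPEB4 GT/+ animals, a difference of 0.98 (SE 0.32, limma adjusted p = 0.535) that was 0.38 without CPEB4 KO animal 1. Qdpr had 9.61 and 9.70 in CPEB4 KO and 9.19 and 9.03 in CPEB4 GT/+ animals (0.54, SE 0.11, adjusted p = 0.428), and 0.59 without that animal. Ttyh2 had 10.06 and 10.02 in CPEB4 KO and 9.55 and 9.52 in CPEB4 GT/+ animals (0.51, SE 0.09, adjusted p = 0.402), and 0.49 without it. All 3 were separated without overlap, and of the 3 only Trf depended on the array with liver transcripts.

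Sox10 differed by 0.50 and Fa2h by 0.46, and by 0.57 and 0.46 without CPEB4 KO animal 1. The other probe sets of Sox10 differed by 0.21 and 0.13. Mbp, at 11.87 and 11.80 in CPEB4 KO against 11.74 and 11.80 in CPEB4 GT/+ animals, differed by 0.07 (SE 0.09), and by 0.04 without that animal. Mog, at 8.99 and 9.05 against 8.93 and 8.83 in CPEB4 GT/+, differed by 0.14, and by 0.17 without it. Olig2, at 8.54 and 8.65 against 8.41 and 8.23 in CPEB4 GT/+, differed by 0.28, and by 0.33 without it. Of these 5 genes none overlapped between the genotypes. The other mature genes were above 0 in 23 of 23 (median 0.23) and the other precursor and early genes in 7 of 10 (median 0.15). Markers of astrocytes (8 of 9 above 0, median 0.18) and of pericytes and fibroblasts (5 of 5, median 0.51) were above 0 beside them, and their part in the difference was not tested. Relative to the WT mean, the pericyte and fibroblast median was 0.58 in CPEB4 KO animal 1, whose array carried liver transcripts, and 0.18 in animal 2. It was -0.24 and 0.01 in CPEB4 GT/+ animals. The astrocyte median was 0.03 and 0.08 in CPEB4 KO and -0.09 and -0.04 in CPEB4 GT/+ animals.

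In the tail fractions the medians were closer to 0. In WASH 28 of 29 genes were above 0 (median 0.15), with 19 higher without overlap beside 17.8% of all genes. In ELUTED 19 were above 0 (median 0.08), with 4 higher without overlap beside 11.4% of all genes. None of the 29 was called in either fraction, where limma called 0.0234% of all genes in WASH and 0% in ELUTED.

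By their median, the oligodendrocyte genes differed less between CPEB4 KO and WT animals in INPUT. Of the 29 genes, 18 were above and 11 below 0, with a median of 0.08 beside 0.03 over all genes. The groups did not overlap in 13 genes that were higher in CPEB4 KO and in 5 that were lower, beside 24.7% and 18.4% of all genes. Limma called 0 of the 29 and 0% of all genes, and at an unadjusted p under 0.05 there were 2 higher (Qdpr and Vcan) and 0 lower among the 29, beside 934 higher and 470 lower among all genes. Without CPEB4 KO animal 1 the median was 0.09 with 23 genes above 0, and without CPEB4 KO animal 2 the median was 0.03.

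The mature genes had a median of 0.02, with 11 of 22 above 0, while the 2 precursor genes were above 0. Vcan had 7.48 and 7.56 in CPEB4 KO and 7.28 and 7.03 in WT animals (0.36, SE 0.11, limma adjusted p = 0.388), and 0.40 without CPEB4 KO animal 1. Lhfpl3 had 6.69 and 6.86 in CPEB4 KO and 6.77 and 6.14 in WT animals, which overlapped (0.32, SE 0.23, and 0.40 without that animal). Qdpr had 9.61 and 9.70 in CPEB4 KO and 9.37 and 9.23 in WT animals (0.35, SE 0.11, limma adjusted p = 0.388, and 0.40 without that animal). Trf differed by 0.65 (SE 0.32, adjusted p = 0.494), by 0.05 without CPEB4 KO animal 1, and by 1.24 without CPEB4 KO animal 2, when limma called it.

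Mog and Gjc3 had the lowest differences of this comparison. Mog had 8.99 and 9.05 in CPEB4 KO and 9.19 and 9.25 in WT animals (-0.20, SE 0.09, adjusted p = 0.479), and -0.18 without CPEB4 KO animal 1. Gjc3 had 8.27 and 8.74 in CPEB4 KO and 8.61 and 8.73 in WT animals (-0.17, SE 0.17), which turned to 0.07 without that animal. Opalin, a membrane protein of mature oligodendrocytes, differed by -0.10, and Mbp, at 11.87 and 11.80 in CPEB4 KO against 11.92 and 11.92 in WT, by -0.08. Without CPEB4 KO animal 1 they differed by -0.05 and -0.12. Both were above 0 once arrays were aligned on the hybridisation controls (0.01 for Opalin and 0.03 for Mbp). Olig2 had 8.54 and 8.65 in CPEB4 KO and 8.48 and 8.28 in WT animals (0.22, SE 0.11), and differed by 0.27 without CPEB4 KO animal 1.

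Cholesterol synthesis genes were above 0 in 14 of 14 (median 0.25, largest in Ebp at 0.77), and 10 of them were higher without overlap (24.7% of all genes). Relative to the WT mean, their median was 0.28 in CPEB4 KO animal 1, whose array carried liver transcripts, and 0.16 in animal 2. The part of the liver transcripts in this difference was not tested. The other mature genes were above 0 in 18 of 23 (median 0.08) and the other precursor and early genes in 8 of 10 (median 0.14). None of these was called. In ELUTED, 24 of 29 oligodendrocyte genes were below 0 in CPEB4 KO minus WT (median -0.17), where 11 were below 0 in INPUT. Of the 29, 19 were lower without overlap in ELUTED, beside 26.5% of all genes. In WASH 15 were above and 14 below 0. None of the 29 was called, where limma called 0.0468% of all genes in WASH and 0.0078% in ELUTED.

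**Figure D4:**
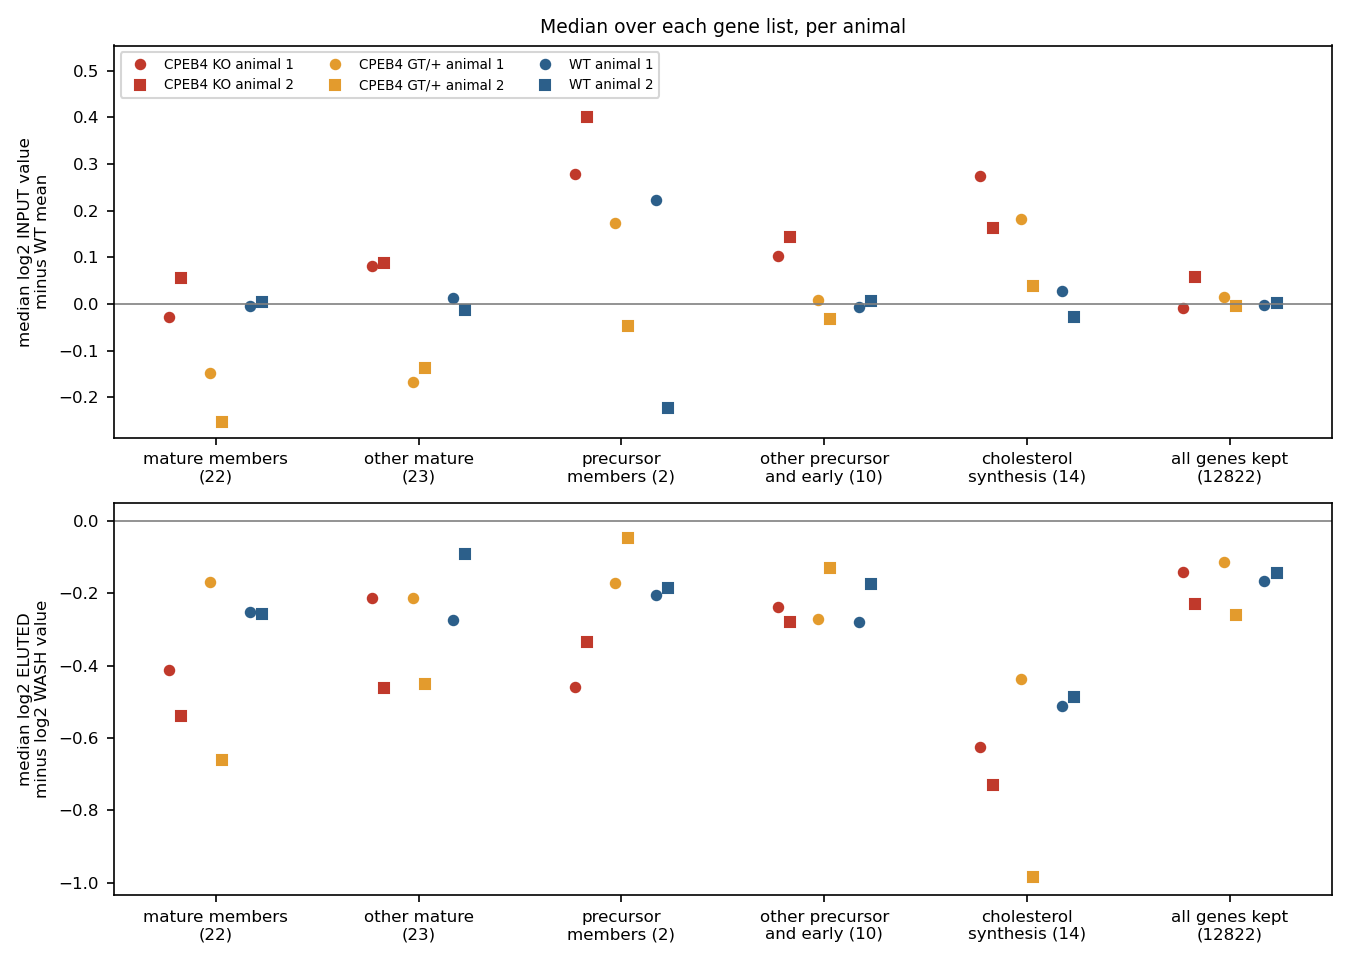
Median log2 INPUT value minus the WT mean (upper panel) and median log2 ELUTED minus log2 WASH value (lower panel) over each gene list, 1 point per animal, with the number of kept genes in brackets. For the mature genes in INPUT the CPEB4 KO animals lie at -0.03 and 0.06 and the CPEB4 GT/+ animals at -0.15 and -0.25.

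Between tail fractions, most of the oligodendrocyte messages were lower in ELUTED than in WASH RNA. The difference ELUTED minus WASH over the 6 animals was called lower in 22 of 29 genes, beside 48.5% of all genes, and higher in 1, beside 24.9%. The median was -0.32, against -0.18 over all genes. In 23 genes all 6 animals were below 0, beside 47.8% of all genes, and in 0 genes were all above 0, beside 23.7%. Mature genes accounted for 18 of the lower calls and the 1 higher call, with a median of -0.35 over 22 genes.

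The metabolic genes had the lowest values, with 6 of 6 called lower and a median of -0.71. Qdpr had differences of -1.26 and -1.43 in CPEB4 KO, -0.57 and -2.10 in CPEB4 GT/+ and -0.85 and -0.86 in WT animals, a mean of -1.18 (SE 0.17, limma adjusted p = 4.36e-04). All 6 animals were below 0, and the 2 CPEB4 GT/+ animals held the highest and the lowest value. Aspa had -0.67 and -1.57 in CPEB4 KO, -0.72 and -1.56 in CPEB4 GT/+ and -1.20 and -0.86 in WT animals (mean -1.10, SE 0.15, adjusted p = 2.88e-04). Ugt8a ran from -1.40 to -0.79 over the animals (mean -0.98, SE 0.09, adjusted p = 8.09e-05). Car2, Trf and Fa2h fell by 0.44, 0.37 and 0.25 on the log2 scale.

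Of the 11 sheath genes 8 were called lower. Ermn had -1.17 and -1.11 in CPEB4 KO, -0.70 and -0.91 in CPEB4 GT/+ and -0.98 and -0.77 in WT animals (mean -0.94, SE 0.07, limma adjusted p = 6.27e-05). Tspan2, a tetraspanin, fell by 0.70, Cnp, a phosphodiesterase of uncompacted myelin, by 0.55, and Mag, an adhesion protein of the innermost layer facing the axon, by 0.54. Mog had -0.46 and -0.29 in CPEB4 KO, -0.08 and -0.75 in CPEB4 GT/+ and -0.12 and -0.21 in WT animals (mean -0.32, SE 0.10, limma adjusted p = 0.0173). Mog lost the call without WT animal 1 (-0.33), without WT animal 2 (-0.30), without CPEB4 KO animal 1 (-0.29) and with quantile normalization (-0.021), was -0.21 without CPEB4 GT/+ animal 2, and was at 0.13 with INPUT in place of WASH. Cldn11, the claudin of myelin tight junctions, fell by 0.33, and the membrane proteins Mal and Opalin by 0.28 each.

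The 3 sheath genes that were not called were Mbp, Mobp and Pllp, and Mbp was near 0 in every animal under the authors' scaling. Mbp had -0.09 and -0.10 in CPEB4 KO, -0.02 and 0.02 in CPEB4 GT/+ and 0.04 and -0.06 in WT animals (mean -0.03, SE 0.07, limma adjusted p = 0.662). Aligned on the hybridisation controls, Mbp was at -0.53 and was called lower. Mobp averaged -0.16 (SE 0.09, adjusted p = 0.128) and Pllp -0.11 (SE 0.07, adjusted p = 0.175).

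Gjc3 was the only gene called higher in ELUTED, and its mean was -0.18 once arrays were aligned on the hybridisation controls. It had 0.41 and 0.76 in CPEB4 KO, 0.32 and -0.16 in CPEB4 GT/+ and 0.38 and 0.14 in WT animals (mean 0.31, SE 0.09, limma adjusted p = 0.0166), so CPEB4 GT/+ animal 2 alone was below 0. Gjc3 lost the call with arrays centred on their medians (0.19), with INPUT in place of WASH (0.18), without WT animal 1 (0.27) and without CPEB4 KO animal 2 (0.25). Its second probe set averaged 0.95. The other genes of that role were called lower: Evi2a had -0.98 and -1.19 in CPEB4 KO, -0.83 and -1.22 in CPEB4 GT/+ and -0.47 and -0.58 in WT animals (mean -0.88, SE 0.08, adjusted p = 8.45e-05), and Gsn, Lpar1 and Ttyh2 fell by 0.81, 0.24 and 0.21.

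Of the 4 measured transcription factors, Olig1, Nkx6-2 and Sox10 were called lower, by 0.35, 0.29 and 0.28 on the log2 scale. For Sox10 this held at the probe set used, while its other probe sets averaged 0.0041 and 0.37. Olig2 was not called, with 0.21 and 0.08 in CPEB4 KO, 0.15 and -0.33 in CPEB4 GT/+ and 0.13 and 0.14 in WT animals (mean 0.06, SE 0.08, limma adjusted p = 0.520). Its place depended on the scaling: Olig2 was called higher with quantile normalization (0.36) and with INPUT in place of WASH (0.28), and was at -0.43 after alignment on the hybridisation controls. The precursor genes differed from each other at the probe sets used. Lhfpl3 fell by 0.65 (SE 0.08, limma adjusted p = 1.92e-04) and Vcan averaged 0.18 (SE 0.10, limma adjusted p = 0.113). Other Vcan probe sets above the filter averaged -0.38 and -1.04, so this contrast depended on the probe set. The one at -1.04 had a mean of 5.60, near the filter. Itpr2 averaged 0.12 (SE 0.09, adjusted p = 0.211). Cpeb4 itself was lower in ELUTED in all 6 animals (mean -1.34, SE 0.14, adjusted p = 1.18e-04).

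**Figure D5:**
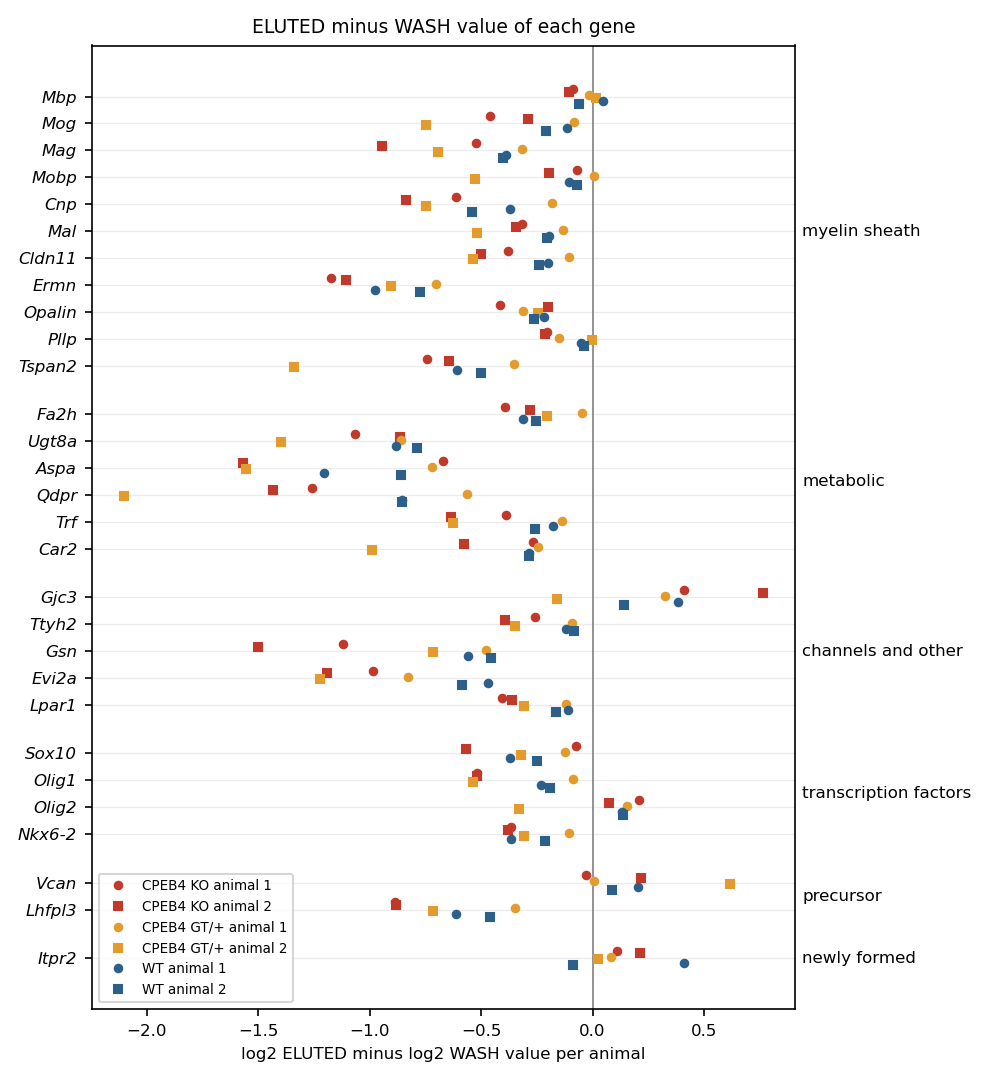
Log2 ELUTED minus log2 WASH value of each of the 29 genes (x axis), by role, 1 point per animal. In 23 genes all 6 points lie left of 0, with Qdpr reaching -2.10 in CPEB4 GT/+ animal 2, while Mbp stays between -0.10 and 0.04.

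The position of 0 depends on how the arrays are scaled. With each array centred on its own median, 24 of the 29 genes were called lower and 0 higher, with the median over all genes at -0.30. After alignment on the hybridisation controls the numbers were 28 and 0, with all genes at -0.68. Values were also less spread on ELUTED arrays (SD 1.78 to 1.90) than on WASH arrays (SD 1.96 to 2.01). With quantile normalization, which gives all arrays the same distribution, 11 were called lower and 4 higher, with a median of -0.10 over the 29 genes. Under the authors' scaling 48.5% of all genes were called lower and 24.9% higher. The shares under the other settings are not given here, so their counts describe only the 29 genes. With INPUT in place of WASH, 11 were called lower and 3 higher, with all genes at -0.04. Leaving out either WT animal left 15 called lower, and the other animals 18 to 23.

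Probe sets of the same gene did not always give the same direction. In 13 genes more than 1 probe set lay above the filter, and in 6 of them (Gsn, Mbp, Mobp, Sox10, Ttyh2 and Vcan) probe sets of the same gene had opposite signs in ELUTED minus WASH. Mobp averaged -0.16 at the probe set used and 0.53, 0.26 and 1.07 at its other 3. Mbp averaged -0.03 and 0.18 at its 2 probe sets. In CPEB4 GT/+ minus WT on INPUT only Gsn had probe sets of opposite sign, and 48 of the 53 probe sets above the filter were below 0.

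Among the other lists, 14 of 23 other mature genes were called lower in ELUTED and 2 higher (median -0.29, largest in Josd2 at -1.05). Of the other precursor and early genes 5 of 10 were called lower and 2 higher (median -0.21, largest in Ptprz1 at -0.69). Of the cholesterol synthesis genes 12 of 14 were called lower and 0 higher (median -0.61, largest in Sqle at -1.31). Over all genes 48.5% were called lower and 24.9% higher, so the counts of the other precursor and early genes were near those shares. The medians of microglia markers (-0.78) and interneuron markers (-0.65) were below that of the oligodendrocyte genes, and those of astrocyte markers (-0.13) and cortical excitatory markers (0.11) above it.

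No gene passed the test between genotypes in ELUTED minus WASH. The median over the 29 genes was -0.39 and -0.50 in CPEB4 KO animals, against -0.23 and -0.25 in WT animals, a gap wider than the spread within either genotype. For CPEB4 KO minus WT, 26 of 29 genes were below 0 (median -0.14 beside -0.04 over all genes), 18 were lower without overlap beside 31.2% of all genes, and 1, Gjc3, was higher without overlap beside 20.6%. Limma called 0 of the 29 and 0% of all genes, and at an unadjusted p under 0.05 there were 2 lower and 0 higher among the 29, beside 621 lower and 170 higher among all genes. Without CPEB4 KO animal 1 the median was -0.22, over 1.5 times as far from 0.

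Gsn differed most. Its ELUTED minus WASH values were -1.12 and -1.50 in CPEB4 KO and -0.56 and -0.46 in WT animals (difference -0.80, SE 0.20, unadjusted p = 0.00384, limma adjusted p = 0.756), a gap wider than the spread within either genotype. Evi2a differed by -0.56 (SE 0.20) and Qdpr by -0.49 (SE 0.42), both without overlap. Gjc3 had 0.41 and 0.76 in CPEB4 KO and 0.38 and 0.14 in WT animals (0.32, SE 0.23). Olig2 and Itpr2 differed by 0.01 and 0.00, Mbp by -0.09 and Mog by -0.21.

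For CPEB4 GT/+ minus WT the 2 CPEB4 GT/+ animals went apart, and the direction rested on 1 of them. The median over the 29 genes of ELUTED minus WASH was -0.13 in CPEB4 GT/+ animal 1 and -0.53 in animal 2, against -0.23 and -0.25 in WT animals. The median difference was -0.11 with 22 genes below 0, -0.30 without CPEB4 GT/+ animal 1, and 0.08 with 22 genes above 0 without CPEB4 GT/+ animal 2. Only Evi2a was lower without overlap (-0.50, SE 0.20, limma adjusted p = 1.00) and only Fa2h higher (0.16, SE 0.17), beside 10.6% and 11.2% of all genes. Qdpr (-0.48), Car2 (-0.33), Vcan (0.17), Sox10 (0.09), Mog (-0.25), Olig2 (-0.22) and Mbp (0.01) overlapped. Limma called 0 of the 29 and 0% of all genes, and at an unadjusted p under 0.05 there were 1 lower and 0 higher among the 29, beside 66 lower and 49 higher among all genes.

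For CPEB4 KO minus CPEB4 GT/+ 20 of 29 genes were below 0 (median -0.10 beside -0.03 over all genes), and the median was 0.02 without CPEB4 GT/+ animal 1 and -0.26 without animal 2. Limma called 0 of the 29 and 0% of all genes, and at an unadjusted p under 0.05 there were 1 lower (Gsn) and 0 higher, beside 141 lower and 96 higher among all genes. Gsn had -1.12 and -1.50 in CPEB4 KO and -0.48 and -0.72 in CPEB4 GT/+ animals (-0.72, SE 0.20, adjusted p = 1.00). Lhfpl3 differed by -0.35 and Ermn by -0.34, both lower without overlap, and Gjc3 by 0.50, higher without overlap. In all, 8 genes were lower without overlap, beside 11.8% of all genes, and 2 higher, beside 9.74%. Car2 (0.19), Olig2 (0.23), Mog (0.04) and Mbp (-0.10) did not pass the test.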

How the data were processed

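RNA of cortex and striatum from 6 mice was measured on 18 arrays, 3 fractions per animal. The deposited table holds log2 values that the authors made by RMA, per the submitters' processing notes, and the version and annotation are not given in the sources used here. The probe set names carry the mark of another array design than the one the series text names. Of 45141 probe sets, 28898 named 1 gene symbol, 551 named several and were left out, and 104 controls were left out. Of those with 1 symbol 28689 matched a RefSeq gene by Entrez gene ID. Each gene was read from its probe set with the highest mean, and the lowest 25% of genes were left out. Array medians lay between 6.32 and 6.48. The SD of the values on an array ran from 1.89 to 1.95 in INPUT, from 1.96 to 2.01 in WASH and from 1.78 to 1.90 in ELUTED.

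Differences were tested with limma 3.58.1 in R 4.3.3 (lmFit, contrasts.fit and eBayes) on INPUT values and on ELUTED minus WASH values per animal, all genotypes in 1 fit with 3 residual degrees of freedom. P-values were adjusted by Benjamini-Hochberg over all 12822 genes in each of 7 comparisons, with calls at 0.05. "Without overlap" means that every animal of one genotype lay on the same side of every animal of the other (for ELUTED minus WASH over all animals, that all 6 lay on 1 side of 0). The fit was tested on simulated data. CPEB4 KO, CPEB4 GT/+ and WT each had 2 animals. The labels do not say whether animals of a genotype were littermates.

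Per-animal values are given for up to 5 called genes with the largest difference in each direction, or for the 3 largest in each direction where fewer than 3 were called, and for Mbp, Mog, Olig2, Pdgfra and Cpeb4. The members and lists were chosen with earlier results of these data known, and the liver list after the data were seen. Replicate numbers were not used to pair the genotypes. Alternatives were the scaling of arrays, the filter, the probe set rule, the variance model, the fraction, the replicate block and each animal left out.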

Additional observations from a re-analysis of the deposited data

Results flagged for a closer look

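The 31 oligodendrocyte genes with a probe set and 10 liver genes, genes below the filter included, were tested for a single animal far from the other 5 by the gap to its nearest neighbour over the whole range (above Dixon's critical value for 6 samples), which chance passes in about 1 in 20 groups. Of the 31, 2 had such a value in INPUT and 1 in ELUTED minus WASH. Trf was at 12.01 in the INPUT of CPEB4 KO animal 1, and Gsn was at 9.18 in the INPUT of CPEB4 GT/+ animal 2. Olig2 was at -0.33 in ELUTED minus WASH of CPEB4 GT/+ animal 2, below the other 5 animals.

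All 10 liver genes stood out in the INPUT of CPEB4 KO animal 1: Alb at 12.08, Apoa1 at 11.00, Apoa2 at 12.09, Apoc3 at 11.19, Apoh at 8.14, Fga at 10.09, Fgb at 9.81, Fgg at 9.56, Hp at 8.39 and Serpina1a at 11.28. These 10 genes were picked with the data already in view. The part of these transcripts in the Trf value of that array was not tested.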

How the results depend on the processing

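With 2 animals per genotype and 3 residual degrees of freedom the precision is set by the number of animals, and genes below the filter cannot be read. The direction of the oligodendrocyte genes in INPUT for CPEB4 GT/+ minus WT (median below 0) and for CPEB4 KO minus CPEB4 GT/+ (median above 0) held under each alternative run, other fractions and left-out animals included. Animals were not left out within the other fractions. Of the values of single genes, 988 kept direction and side of the threshold, 60 turned direction, 13 gained a call and 8 lost one. For counts and medians 330 values stayed close and 27 moved. Leaving out an animal of a genotype that a comparison does not use changes only its error, so those values could not move. The single-gene counts cover only the genes picked for per-animal values in each comparison. Among those, the lost calls were all of Mog and Gjc3 in ELUTED minus WASH. Other genes called lower in that ratio were not counted, and some of them also lost the call. Without CPEB4 KO animal 1 these included Ttyh2 (-0.24), Fa2h (-0.23) and Lpar1 (-0.24). Without CPEB4 KO animal 2 they included Ttyh2 (-0.19) and Sox10 (-0.20). Where no cause is named, the cause was not tested.

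Centring each array on its median left 0 genes called higher in ELUTED minus WASH and gave -0.056 for Olig2. In the same ratio, Olig2 and Itpr2 were then at -0.031 and -0.040 for CPEB4 KO minus WT and Mbp at -0.024 for CPEB4 GT/+ minus WT. Aligning arrays on the hybridisation controls left 0 genes called higher in ELUTED minus WASH, with a median of -0.81, Gjc3 at -0.18, Olig2 at -0.43 and Mbp called lower at -0.53. The ratio for CPEB4 KO minus WT then had a median of -0.31, with Olig2 at -0.16 and Itpr2 at -0.17. The ratio for CPEB4 KO minus CPEB4 GT/+ had a median of -0.33, with Olig2 at -0.0013, Car2 at -0.037 and Mog at -0.19. In INPUT, alignment gave 1 gene called higher for CPEB4 KO minus WT, with Opalin at 0.013 and Mbp at 0.026. It gave 5 for CPEB4 KO minus CPEB4 GT/+, with a median of 0.40, while all genes moved to 0.14 and 0.17. The shares of all genes called in INPUT under this alignment are not given here, so these counts describe only the oligodendrocyte genes. Lhfpl3 was then at -0.0065 for CPEB4 GT/+ minus WT in INPUT. Quantile normalization gave 4 genes called higher and 11 lower in ELUTED minus WASH, a median of -0.10, Mbp at 0.11, Mog uncalled at -0.021 and Olig2 called higher at 0.36.

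The mean of the probe sets of each gene gave 2 genes called higher in ELUTED minus WASH and Mbp at 0.071. Between genotypes it gave -0.047 for Itpr2 (CPEB4 KO minus WT), -0.029 for Vcan and -0.018 for Mbp (CPEB4 GT/+ minus WT) and 0.020 for Cpeb4 (CPEB4 KO minus CPEB4 GT/+). A mean-variance trend gave 2 called higher. With INPUT in place of WASH, 3 were called higher and 11 lower, with a median of -0.13, Mog at 0.13 and Olig2 called higher at 0.28. Between genotypes that ratio gave -0.25 for Olig2 and -0.091 for Itpr2 (CPEB4 KO minus WT), -0.12 for Vcan (CPEB4 GT/+ minus WT) and -0.066 for Olig2 and -0.018 for Mog (CPEB4 KO minus CPEB4 GT/+).

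With WASH in place of INPUT, Olig2 was at -0.036 for CPEB4 KO minus WT and at -0.017 for CPEB4 KO minus CPEB4 GT/+, and Vcan at -0.19 for CPEB4 GT/+ minus WT. With ELUTED in place of INPUT, CPEB4 KO minus WT had a median of -0.17, with Trf at -0.23, Qdpr at -0.32, Gjc3 at 0.10 and Olig2 at -0.027. Vcan was at -0.026 for CPEB4 GT/+ minus WT, and CPEB4 KO minus CPEB4 GT/+ had a median of 0.080 and Mbp at -0.075. The mean of the 3 fractions gave a median of -0.041 for CPEB4 KO minus WT and -0.042 for Vcan in CPEB4 GT/+ minus WT.

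Leaving out 1 animal at a time gave 0 to 2 genes called higher in ELUTED minus WASH and -0.018 to 0.14 for Olig2. For CPEB4 KO minus WT of that ratio, Itpr2 ran from -0.25 to 0.25 and Olig2 from -0.057 to 0.075. For CPEB4 GT/+ minus WT of that ratio the median ran from -0.30 to 0.079, Mbp from -0.044 to 0.060, Sox10 from -0.0096 to 0.19, Vcan from -0.14 to 0.47, Qdpr from -1.25 to 0.29, Car2 from -0.70 to 0.041, Mog from -0.58 to 0.080, Olig2 from -0.46 to 0.020 and Cpeb4 from -0.93 to 0.22. For CPEB4 KO minus CPEB4 GT/+ of that ratio, Cpeb4 ran from -0.97 to 0.17, Olig2 from -0.011 to 0.47, Car2 from -0.18 to 0.57 and Mog from -0.29 to 0.37. In INPUT, CPEB4 KO minus WT gave 0 to 1 gene called higher and -0.40 to 0.070 for Gjc3, and CPEB4 KO minus CPEB4 GT/+ gave 0 to 1 called higher. The called gene in both was Trf, without CPEB4 KO animal 2. In INPUT, CPEB4 GT/+ minus WT gave -0.16 to 0.038 for Olig2, -0.034 to 0.22 for Vcan and -0.28 to 0.35 for Lhfpl3. A lone animal in a genotype was assumed to vary like the other genotypes.

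With the replicate number as a block across genotypes, 22 genes were called lower and 1 higher in ELUTED minus WASH and 0 in each other comparison, so the block changed no count of calls. Same-numbered animals of different genotypes had deviations that correlated by -0.206 to 0.225. Fractions of the same animal correlated by -0.125 to 0.348, which overlaps that range. The check therefore cannot tell whether same-numbered samples share more than a number. Within CPEB4 GT/+ the WASH and ELUTED deviations correlated by -0.125, and crossing the CPEB4 GT/+ numbers, an alternative chosen after seeing the data, gave 22 genes called lower and 2 higher. The choroid plexus marker Ttr kept to the labelled numbers in CPEB4 GT/+ and WT animals. It was at 7.84, 8.11 and 7.43 in INPUT, WASH and ELUTED of CPEB4 GT/+ animal 1, and at 11.48, 11.52 and 10.61 in animal 2. In WT it was at 11.24, 11.36 and 10.95 in animal 1, and at 8.93, 8.97 and 8.35 in animal 2. CPEB4 KO was less clear, at 11.40, 9.39 and 8.34 in animal 1, whose INPUT array carried liver transcripts, and at 11.82, 11.78 and 10.93 in animal 2.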
